A study of Mus musculus with 4 samples.

Results

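The proteasome is the protease complex that degrades most short-lived and damaged proteins of the cell after they are tagged with ubiquitin. Its genes were followed in cultured spermatogonia of CD1 mice, called SSC cultures after the spermatogonial stem cells they hold. The members were all rows of the deposited count table whose gene symbol is Psm, a letter from a to g and a number. This rule found 48 of 55421 genes, and 47 of them had enough counts to be tested, among 20232 genes tested.

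There were 2 groups of 2 libraries each, 4 libraries in total. In the Veh group the CD1 cultures stayed in complete SSC medium with N2 supplement, bFGF and GDNF. The NRRA group consisted of CD1 cultures given nutrient restriction medium, which is mostly a balanced salt solution mixed with some complete medium, together with retinoic acid (RA). The labels give no time of treatment, which the study's methods state for the cultures, and no genetic alteration was named for either group. The cultures were derived from testes of neonatal pups and grew on feeder cells, which were purchased, irradiated mouse embryonic fibroblasts from an outbred strain, so each library held RNA of germ cells and of fibroblasts. The comparison addresses whether the response to NRRA, described by the study mainly in an F1 hybrid background, is also seen in another background.

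The table gave between 28022265 and 31604769 counts per library. Values below are counts scaled to a common library size (CPM), with TMM factors of 0.969 to 1.03, and log2 fold changes are NRRA over Veh with their standard error (SE). A gene was called when the adjusted p of edgeR's quasi-likelihood test was under 0.05. The study calls its sequencing replicates independent and biological, but the labels do not say which libraries came from separate cultures, and p-values measure only the spread between these libraries. Counting error sets a floor of 3 counts, or 0.0920 to 0.110 CPM, and covers no other error, since PCR copies were not told apart. Stra8, a gene induced by RA at the start of meiosis, checked the labels: the count was 261 and 300 in Veh, against 60702 and 55775 in NRRA. Germ cell genes were present in both groups, with the summed level of Ddx4, Dazl, Mael, Tdrd1 and Dnd1 between 1348 and 1420 CPM in Veh and between 1393 and 1394 CPM in NRRA. Within this sum Dazl was called higher (0.16), Tdrd1 (-0.45), Mael (-0.15) and Dnd1 (-0.094) lower, and Ddx4 was not called. The labelled cell type was thus present by its markers, together with fibroblast transcripts.

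The 26S proteasome is built from a barrel, the 20S core, and caps that open it, the 19S regulatory particles. The core has outer rings of alpha subunits (Psma genes) and inner rings of beta subunits (Psmb genes), and 3 of the beta subunits carry the proteolytic sites. In cells exposed to interferon, and in immune cells, these catalytic subunits can be exchanged for Psmb8, Psmb9 and Psmb10, which gives the immunoproteasome. Male germ cells have an alpha subunit of their own, Psma8, which takes the place of Psma7 and is needed for meiosis. Other caps (Psme genes) can replace the 19S particle, and dedicated chaperones (Psmg genes, Psmd5, Psmd9 and Psmd10) assist assembly.

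Most proteasome genes were lower in NRRA. Of the 47 members tested, 38 fell, 2 rose (Psma8 and Psme4) and 7 were not called. With library size alone in place of TMM, 34 were called lower and 4 higher. DESeq2 gave 36 lower and 1 higher, without Psme4. Among all genes tested, 28.4% were called lower and 27.9% higher. The median log2 fold change of the members was -0.35, which is a level 21.5% lower, and the values ranged from -1.41 to 0.47. Over all genes tested the median was 0.00030. At least 1.5-fold lower and called were 5 members (Psmb10, Psmd7, Psme2, Psmd1 and Psmg2), a share close to the 12.0% of all genes tested, and 0 members were called higher by that amount, against 11.8%. The summed level of the members was 6249 and 6268 CPM in Veh, against 5049 and 5066 CPM in NRRA. Both NRRA libraries lay below both Veh libraries for 40 members (38.6% of all genes tested), above them for 3 (38.1%), and the groups overlapped for 4.

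Proteasome genes are well expressed, and more genes pass a test at high counts. Among the 7082 genes with an average log2 CPM of at least 5, a limit chosen after the values were seen, 41.7% were called lower and 34.7% higher, and the median log2 fold change was -0.030. At that level there were 40 members, of which 36 fell and 1 rose, with a median of -0.38. In bulk RNA, fewer cells of a type and less RNA per cell cannot be told apart. The share of members called lower stood above that of genes of like level, while 8.66% of the latter were called lower and at least 1.5-fold, beside 5 of the 40 members.

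Markers of other cells moved with the groups. The summed level of 10 fibroblast feeder genes was 8673 to 8785 CPM in Veh and 6633 to 6791 CPM in NRRA, with 8 called lower and 1 higher. Fn1 alone, with 6136 and 6079.9 CPM in Veh and 4357 and 4347 CPM in NRRA, made up most of this sum, and the median log2 fold change of the list was -0.20. All 5 genes of undifferentiated spermatogonia fell, from a sum of 936 to 942 CPM to one of 219 to 223 CPM. Leukocyte genes, which matter for the immunoproteasome, summed to 44.9 to 48.7 CPM in Veh and 42.3 to 43.3 CPM in NRRA, with 2 of 7 called higher and 1 lower, and the defining gene Ptprc was at 0.20 to 0.40 CPM. Sertoli cell genes summed to 33.8 to 37.5 CPM in Veh and 15.7 to 15.9 CPM in NRRA, with Amh and Rhox5 at or under 3 counts in every library. Most of that sum came from Sox9, which was called lower (27.1 and 29.3 CPM in Veh and 9.32 and 9.42 CPM in NRRA), and Wt1, which was not called (6.56 and 7.82 CPM in Veh and 5.80 and 6.04 CPM in NRRA). Leydig and peritubular genes summed to 93.3 to 105.9 CPM in Veh and 71.5 to 79.1 CPM in NRRA, with Hsd3b1 at 1 count or 0. Most of that sum was Acta2 (82.7 and 93.4 CPM in Veh, 60.3 and 67.7 CPM in NRRA), which fell together with Myh11, while Star was called higher (0.31, adjusted p = 0.032). The part of these cell types in the changes of the proteasome genes was not tested.

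**Figure D1:**
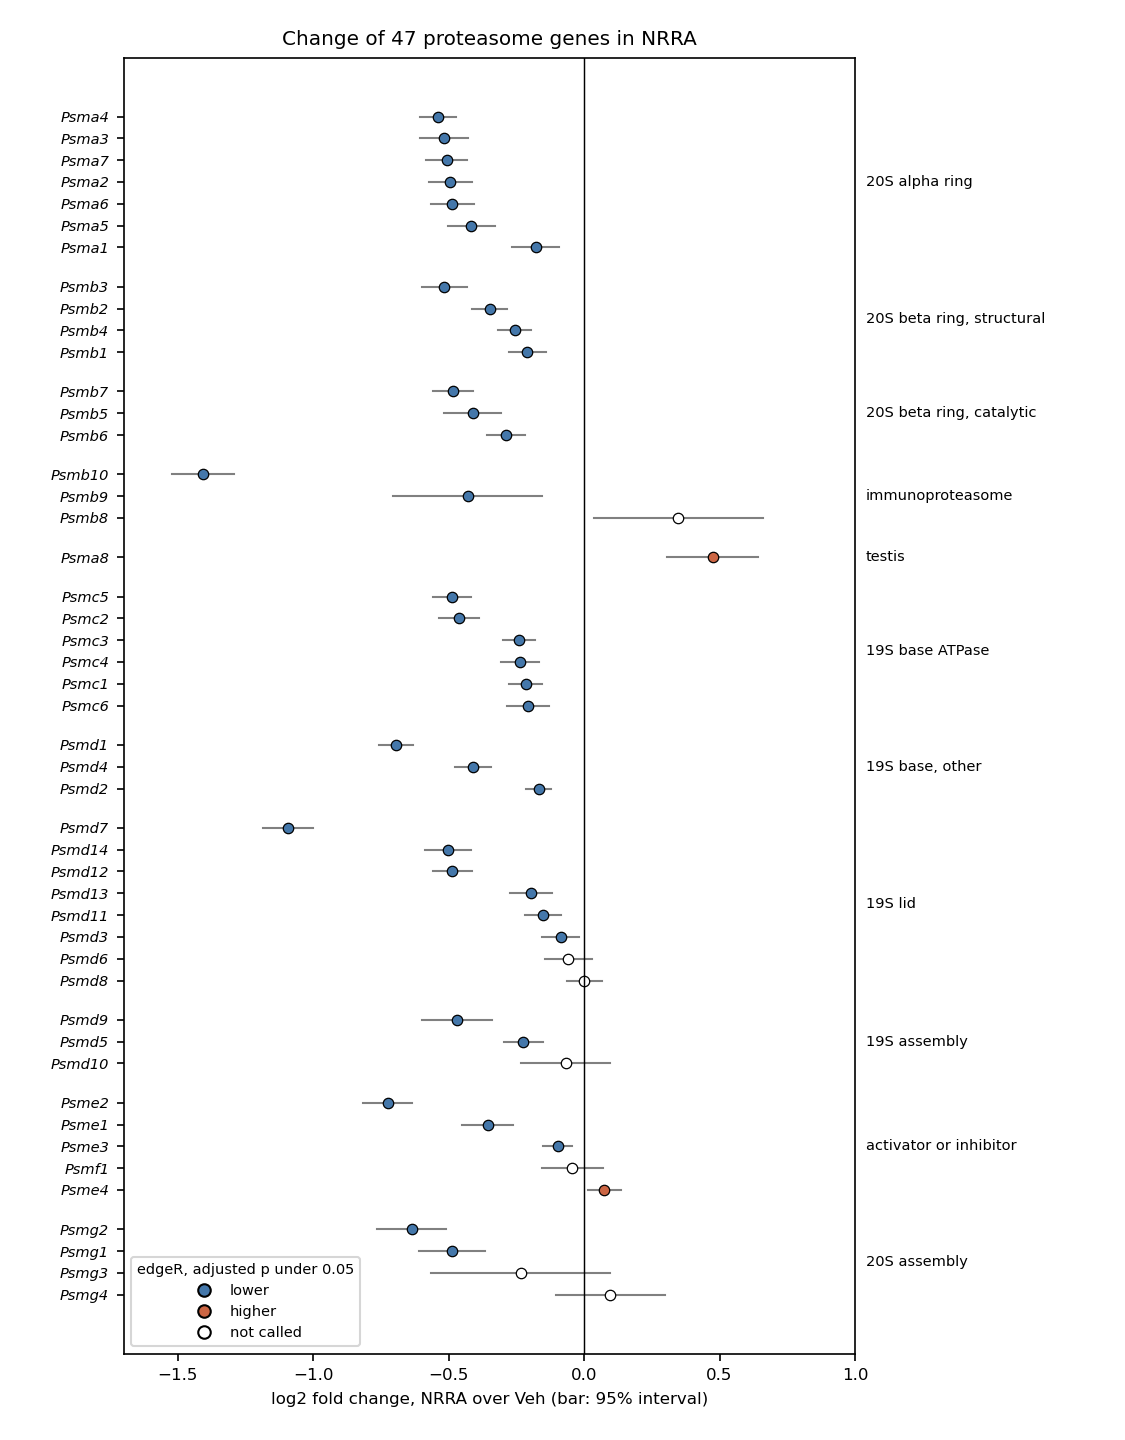
Log2 fold change of each of the 47 tested proteasome genes, NRRA over Veh, on the horizontal axis, with genes grouped by their place in the complex. Points are estimates from 2 libraries per group, bars are 95% intervals and the fill gives the call; every constitutive 20S subunit lies left of 0, Psmb10 lies farthest left at -1.41, and Psma8 farthest right at 0.47.

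All 14 subunits of the constitutive 20S core were called lower (13 with library size alone, without Psma1), beside 28.4% of all genes tested and 41.7% of those with an average log2 CPM of at least 5. The 14 had a median log2 fold change of -0.45 and a range of -0.54 to -0.18. The standard deviation of the log2 fold changes over the 14 genes was 0.12. For each gene both NRRA libraries were below both Veh libraries, as for 38.6% of all genes tested. Summed over the 14 genes, the level was 1845 and 1854 CPM in Veh and 1409 and 1419 CPM in NRRA, a difference of -23.6%. In the alpha ring, which gates the entry into the barrel, 6 of the 7 subunits had log2 fold changes between -0.54 and -0.42. Psma4 fell from 179 CPM in both Veh libraries to 124 and 122 CPM (log2 fold change -0.54, SE 0.032), and Psma3 from 86.6 and 90.4 to 61.2 and 62.5 CPM (-0.52, SE 0.044). Psma7, the subunit whose place Psma8 can take, fell from 144 and 138 to 98.4 and 100.2 CPM (-0.51, SE 0.036). At the other end of the ring were Psma5, from 86.2 and 85.4 to 63.6 and 65.0 CPM (-0.42, SE 0.043), and Psma1, which fell least, from 82.6 and 85.9 to 73.8 and 75.2 CPM (-0.18, SE 0.042).

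Of the beta subunits without a proteolytic site, Psmb3 fell most, from 103 and 101 to 70.3 and 72.1 CPM (log2 fold change -0.52, SE 0.040). Psmb2 followed with 176 CPM in both Veh libraries and 138 and 139 CPM in NRRA (-0.35, SE 0.032). Psmb4 fell less, from 224 and 228 to 186 and 192 CPM (-0.26, SE 0.030), as did Psmb1, from 160.1 and 168 CPM to 142 CPM in both NRRA libraries (-0.21, SE 0.034). In all 4 genes the NRRA libraries lay below the Veh libraries, as in 38.6% of all genes tested.

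The 3 catalytic beta subunits also fell, each by less than 1.5-fold. Psmb7, which carries the trypsin-like site, had 137 and 135 CPM in Veh against 96.4 and 98.5 CPM in NRRA, a log2 fold change of -0.48 (SE 0.036). Psmb5, with the chymotrypsin-like site, had 59.0 and 56.7 CPM against 43.6 and 43.4 CPM (-0.41, SE 0.051). For Psmb6, with the caspase-like site, the values were 170 and 175 CPM and then 145 and 138 CPM (-0.29, SE 0.034). The NRRA libraries were lower in each case, with no overlap, as for 38.6% of all genes tested. Psmb5 lies on chromosome 14 (GRCm38, 54614119 to 54618022, minus strand), Psmb6 on chromosome 11 (70525367 to 70527858, plus strand) and Psmb7 on chromosome 2 (38588036 to 38644087, minus strand).

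Constitutive proteasome genes are known targets of the transcription factor NFE2L1, which binds antioxidant response elements (ARE). The sequences next to the start of Psmb5 and Psmb6, which fell by modest amounts, and of Psmb10, which fell much more, are therefore shown. They come from RefSeq (GRCm38.p6) and end just before the first transcribed base in RefSeq or, where it lies further upstream, in GENCODE. Capitals mark the ARE core searched, TGACNNNGC on either strand.
Psmb5, chr14:54618023-54618245, minus strand: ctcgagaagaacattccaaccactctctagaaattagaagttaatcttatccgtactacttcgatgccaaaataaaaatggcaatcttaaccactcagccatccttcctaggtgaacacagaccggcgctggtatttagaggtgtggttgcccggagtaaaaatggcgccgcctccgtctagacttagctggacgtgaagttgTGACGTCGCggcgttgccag
Psmb6, chr11:70525107-70525356, plus strand: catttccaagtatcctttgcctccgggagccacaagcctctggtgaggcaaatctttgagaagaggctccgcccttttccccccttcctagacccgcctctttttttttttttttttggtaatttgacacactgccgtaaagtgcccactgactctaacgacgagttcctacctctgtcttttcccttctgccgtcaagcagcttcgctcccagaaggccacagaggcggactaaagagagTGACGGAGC
Psmb10, chr8:105938445-105938642, minus strand: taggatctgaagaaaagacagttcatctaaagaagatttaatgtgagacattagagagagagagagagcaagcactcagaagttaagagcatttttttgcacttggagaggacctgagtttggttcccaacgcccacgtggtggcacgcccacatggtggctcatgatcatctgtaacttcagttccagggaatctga

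In Psmb5 the ARE core TGACGTCGC ended 11 bases before the end of the sequence shown, and in Psmb6 TGACGGAGC ended at its last base. The sequence of Psmb10 held no match. RefSeq windows of 250 bases before to 50 bases after a start were found for 40 of the 48 members and not matched for Psma8, Psmb1, Psmb2, Psmb7, Psmc3, Psmd3, Psmd7 and Psmg2. Of the 40, 6 held the ARE core in a window (15% of the members, 14.0% of all genes with a window), namely Psmb5, Psmb6, Psmc6, Psmd9, Psmd12 and Psme4. The CCAAT box, CCAAT on either strand, was in the windows of 14 members (35%, against 41.1% of all genes). The interferon-stimulated response element core, GAAA, 2 bases of any kind and GAAA on either strand, was in those of 5 members (12.5%, against 3.99%), which were Psmb3, Psmd4, Psmd9, Psme1 and Psmg4, and not in those of Psmb8, Psmb9 or Psmb10. A match of letters is a description of the window and does not show that a factor binds there.

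The immunoproteasome subunits did not move together. Psmb10, the subunit that replaces Psmb7, fell the most of all members. It had 64.8 and 64.5 CPM in Veh against 24.1 and 24.6 CPM in NRRA, a log2 fold change of -1.41 (SE 0.056, adjusted p = 2.2e-17). The Psmb10 gene (ENSMUSG00000031897) lies on chromosome 8 (GRCm38, 105935735 to 105938444, minus strand). It shares no near-identical stretch with another gene and overlaps no gene on the other strand. Psmb9, which replaces Psmb6, was low in every library, with 7.48 and 7.39 CPM in Veh and 5.46 and 5.57 CPM in NRRA (-0.43, SE 0.13, adjusted p = 0.0079). This call was lost with DESeq2 (adjusted p = 0.12) and kept under the other settings.

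Psmb8, which replaces Psmb5, was not called, close to the threshold. Its level was 7.29 and 6.04 CPM in Veh, and 10.0 and 6.87 CPM in NRRA, so that the groups overlapped (log2 fold change 0.35, 95% interval 0.036 to 0.66, adjusted p = 0.054). The value rested on NRRA replicate 1, without which it was 0.051 (adjusted p = 0.84), whereas without NRRA replicate 2 it was 0.59 (adjusted p = 0.00049) and without Veh replicate 1 it was 0.49 (adjusted p = 0.0061). It was also called higher with library size alone, without the filter on low counts, with at least 10 counts in every library and with the replicate block (0.33, adjusted p = 0.023), but not with DESeq2 (adjusted p = 0.27). Psmb8 (GRCm38, 34197721 to 34201454, plus strand) and Psmb9 (34181987 to 34187764, minus strand) are neighbours in the major histocompatibility region of chromosome 17. Of their exonic bases, 14.7% in Psmb8 and 5.8% in Psmb9 overlap a gene on the other strand, which matters here because the strand setting of the counting is not given in the sources used here. Psmb11, the catalytic subunit found in the thymus, had 0 and 1 counts in Veh and 1 and 3 counts in NRRA, at or under the floor in every library, so no fold was formed.

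The exchange of subunits was followed as the log2 ratio of the replacing to the constitutive gene within each library. Of the exonic bases of Psmb7, 11.8% overlap a gene on the other strand. Psmb5 shares 88.4% and Psmb6 27.4% of its longest transcript with near-identical stretches of other genes, so these denominators are less certain. Psmb10 to Psmb7 was -1.08 and -1.07 in Veh, and the mean of the NRRA libraries, which were 0.0023 (SD) apart, differed from that of Veh by -0.92. Psmb9 to Psmb6 differed by -0.14 and Psmb8 to Psmb5 by 0.73, the latter with an SD of 0.38 between the NRRA libraries. Without NRRA replicate 1 these differences were -0.088 and 0.46. The exact two-sided permutation test gave p = 0.333 for each ratio, which is the smallest value that 2 against 2 libraries allow. Per kilobase of exon, Psmb10 made up 48.7% and 48.9% of the sum of Psmb10 and Psmb7 in Veh, against 33.4% in each NRRA library. The corresponding share of Psmb8 was 3.18% and 2.75% in Veh and 5.75% and 4.04% in NRRA, and that of Psmb9 2.20% and 2.11% in Veh and 1.89% and 2.03% in NRRA. With the longest transcript as length, the shares of Psmb8 were 5.51% and 4.78% in Veh and 9.76% and 6.94% in NRRA, and those of Psmb9 1.45% and 1.39% in Veh and 1.25% and 1.34% in NRRA. Per kilobase, Psmb10 was thus the only one of the 3 with a transcript level like that of its constitutive partner in Veh, and the fall of its share left the ranges of the groups well apart. This likeness depends on the annotated lengths. Not scaled by length, Psmb10 had 64.7 CPM and Psmb7 136 CPM in the mean of the Veh libraries.

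The germ cell alpha subunit moved against the core. Psma8 (ENSMUSG00000036743, chromosome 18) rose from 15.3 and 16.4 CPM in Veh to 21.5 and 22.7 CPM in NRRA, a log2 fold change of 0.47 (SE 0.081, adjusted p = 1.7e-05). Both NRRA libraries lay above both Veh libraries. The log2 ratio of Psma8 to Psma7 was -3.23 and -3.07 in Veh and -2.19 and -2.14 in NRRA, a difference of 0.98 with the same exact permutation p of 0.333. Per kilobase of exon, Psma8 made up 11.6% and 12.8% of the sum of Psma8 and Psma7 in Veh and 21.2% and 21.8% in NRRA. Its share was 7.74% and 8.59% in Veh and 14.7% and 15.2% in NRRA with the longest transcript as length. The fall of Psma7 and the rise of Psma8 both entered this share.

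**Figure D2:**
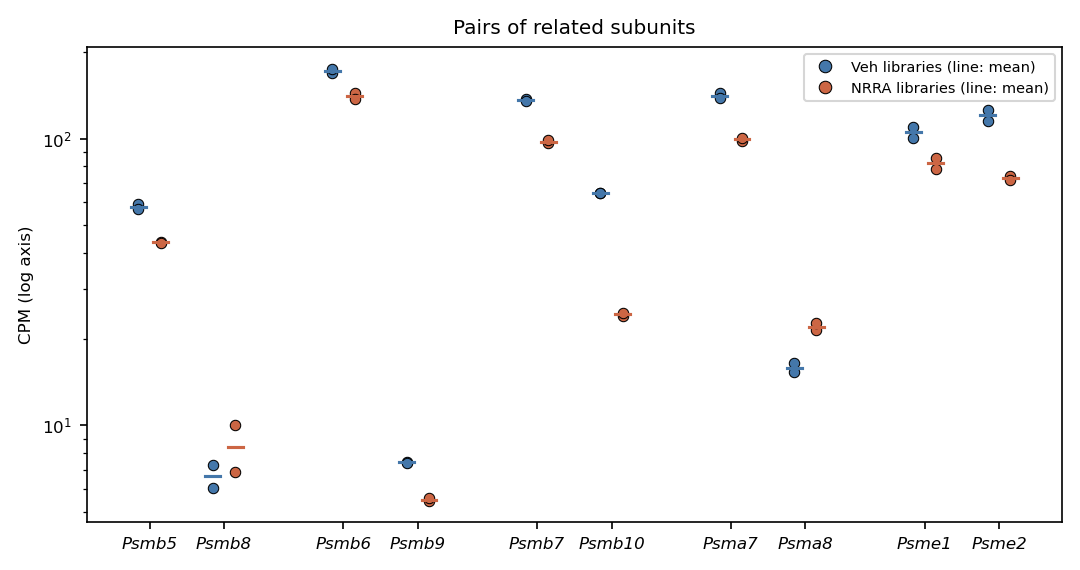
Level of each subunit beside the subunit that can take its place and, at the right, of the cap partners Psme1 and Psme2, in CPM on a log axis, with 1 point for each of the 2 Veh and 2 NRRA libraries and a line at the group mean. Psmb10 drops further than Psmb7, Psma8 rises while Psma7 falls, the Psmb8 libraries overlap, and Psme2 drops further than Psme1.

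The 19S regulatory particle recognizes ubiquitin chains, unfolds the substrate and feeds it into the core. Of its 17 subunits among the members, 15 fell (28.4% of all genes tested were called lower) and 2 were not called, with a median log2 fold change of -0.24. With library size alone, 13 were lower and 1 higher, with a median of -0.15. The changes spread more widely than in the core, with a standard deviation of 0.27 over the 17 genes and a range of -1.09 to 0.00059. The summed level was 3199 and 3215 CPM in Veh and 2619 and 2625 CPM in NRRA, a difference of -18.2%. The 6 ATPases of the base, which unfold the substrate, all fell. Psmc5 (log2 fold change -0.49, SE 0.034) and Psmc2 (-0.46, SE 0.036) fell most, the former from 151 and 156 to 110 and 109 CPM and the latter from 139.8 and 145 to 102 and 105 CPM. Psmc1 (-0.22, SE 0.029) and Psmc6 (-0.21, SE 0.038) fell least, the former from 246 and 240.0 to 206 and 212 CPM and the latter from 107 CPM in both Veh libraries to 93.3 and 91.7 CPM.

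Of the other base subunits, the scaffold Psmd1 fell from 247 and 248 to 150 and 156 CPM (log2 fold change -0.70, SE 0.031). Its fellow scaffold Psmd2, the member with the highest level per kilobase, fell from 675 and 686 to 607 and 604 CPM (-0.17, SE 0.023). Over the alternative settings the value of Psmd2 ranged from -0.18 to -0.079. Psmd2 shares 91.9% of its longest transcript with a near-identical gene, so its counts are uncertain. The ubiquitin receptor Psmd4 lay between Psmd1 and Psmd2 (-0.41, SE 0.033).

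The lid, which removes ubiquitin from the substrate, held the second largest fall of all members and the member with the log2 fold change nearest 0. Psmd7 (ENSMUSG00000039067, chromosome 8, 107580381 to 107588464, minus strand), the partner of the deubiquitinase Psmd14, had 130 CPM in both Veh libraries, against 64.5 and 57.4 CPM in NRRA. Its log2 fold change was -1.09 (SE 0.045, adjusted p = 4.5e-17), and no near-identical stretch or opposite gene was found. Psmd14 itself fell from 94.2 and 94.6 to 66.0 and 67.1 CPM (-0.50, SE 0.041), beside a median of -0.45 for the constitutive 20S core. Psmd7 and Psmd14 form a dimer in the particle, and the 95% intervals of their log2 fold changes did not meet. At the other end, Psmd8 had 172 and 174 CPM in Veh and 175 and 171 CPM in NRRA (0.00059, 95% interval -0.064 to 0.065). It was called higher with library size alone (0.090, adjusted p = 0.016), and was at -0.0075 without Veh replicate 1 and -0.014 without NRRA replicate 1. Psmd6, with 78.3 and 78.5 CPM in Veh and 76.004 and 74.4 CPM in NRRA, was not called either (-0.059, 95% interval -0.15 to 0.028), although its NRRA libraries lay below its Veh libraries. Psmd3 (-0.087, adjusted p = 0.028) lost its call without Veh replicate 1, NRRA replicate 1 or NRRA replicate 2, with values of -0.058, -0.069 and -0.10, and also with DESeq2 and without the filter on low counts (-0.079), and was at 0.0031 with library size alone.

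The alternative caps changed by different amounts. Psme2 and Psme1 form the PA28 ring, a cap that is induced by interferon and serves the immunoproteasome. Psme2 fell from 126 and 115 CPM to 73.9 and 71.7 CPM (log2 fold change -0.73, SE 0.043), and Psme1 from 109 and 101 CPM to 85.5 and 78.4 CPM (-0.36, SE 0.046). They lie close together on chromosome 14 (GRCm38), Psme1 from 55578123 to 55581529 on the plus strand and Psme2 from 55587441 to 55591113 on the minus strand. The log2 ratio of Psme2 to Psme1 was 0.20 and 0.19 in Veh and -0.21 and -0.13 in NRRA. Psme2 shares 82.5% of its longest transcript with the near-identical Psme2b, so its counts are uncertain. The nuclear cap Psme3 changed little, from 335 and 340 to 312 and 319 CPM (-0.098, SE 0.026), and lost its call with library size alone (-0.0085, adjusted p = 0.81) and without NRRA replicate 1 (-0.077, adjusted p = 0.069).

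Psme4, the PA200 cap with a known role in male germ cells, was 190 and 191 CPM in Veh and 200 and 201 CPM in NRRA (log2 fold change 0.075, SE 0.030, adjusted p = 0.034). Its call was lost when any 1 of the 4 libraries was left out, with values of 0.070 to 0.084, and with DESeq2. Psmf1, an inhibitor of the core, was not called, with 44.2 and 43.9 CPM in Veh and 43.5 and 41.9 CPM in NRRA (-0.044, 95% interval -0.16 to 0.068).

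Among the chaperones of the core, Psmg2 fell from 40.9 and 41.2 CPM to 26.4 CPM in both NRRA libraries (log2 fold change -0.64, SE 0.061). Its partner Psmg1 fell from 54.4 and 60.0 to 39.0 and 42.9 CPM (-0.49, SE 0.059). The second pair of core chaperones, which also act together, was not called. Psmg3 was low and its groups overlapped, with 6.92 and 5.405 CPM in Veh and 4.51 and 5.97 CPM in NRRA (-0.23, SE 0.16), while Psmg4 was 12.2 and 12.0 CPM in Veh and 13.0 and 12.8 CPM in NRRA (0.097, SE 0.098). Without Veh replicate 2 or NRRA replicate 2, Psmg3 was called lower (-0.41 and -0.45). Of the chaperones of the 19S base, Psmd9 fell from 37.2 and 37.3 to 27.6 and 26.1 CPM (-0.47, SE 0.063) and Psmd5 from 135 and 137 CPM to 116 CPM in both NRRA libraries (-0.22, SE 0.035). Psmd10 was not called, with 19.2 and 20.6 CPM in Veh and 18.7 and 19.2 CPM in NRRA (-0.069, SE 0.079). Of the exonic bases of Psmd9, 25.5% overlap a gene on the other strand.

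Levels of different genes were compared as CPM per kilobase of exon. Although subunits of the 20S core are present in equal numbers in the particle, their levels per kilobase differed 6.59-fold and 6.30-fold between the lowest, Psma3, and the highest, Psmb2, in Veh, and 7.30-fold and 7.17-fold in NRRA. These folds depend on the annotated lengths, 3894 bases of exon for Psma3 and 1204 for Psmb2. Not scaled by length, Psma3 had 88.5 CPM and Psmb2 176 CPM in the mean of the Veh libraries. Psma3 also shares 32.5% of its longest transcript with near-identical stretches of other genes. The median of the 14 was 56.1 and 54.1 CPM per kilobase in Veh and 40.1 and 40.5 in NRRA. For the 17 subunits of the 19S particle the median was 54.6 and 54.0 in Veh and 30.0 and 30.6 in NRRA, and it belonged to Psmd12 in the former and to Psmd3 in the latter. No subunit lay between 34.1 and 54.3 CPM per kilobase in the mean of the Veh libraries. Psmd7 fell across this gap, from 57.6 to 27.0 in the group means, which moved the middle rank, while Psmd12 fell to 38.8. With the longest transcript as length, the 19S median was 74.1 and 73.2 in Veh and 53.5 and 53.7 in NRRA. In the mean of the Veh libraries, Psmb10 had 37.9 CPM per kilobase, near the 39.8 of Psmb7. Psma8 had 6.37 and Psmb8 and Psmb9 1.97 and 2.03. In NRRA the levels per kilobase of Psmb10 and Psmb7 were 14.3 and 28.5, and that of Psma8 was 8.86.

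**Figure D3:**
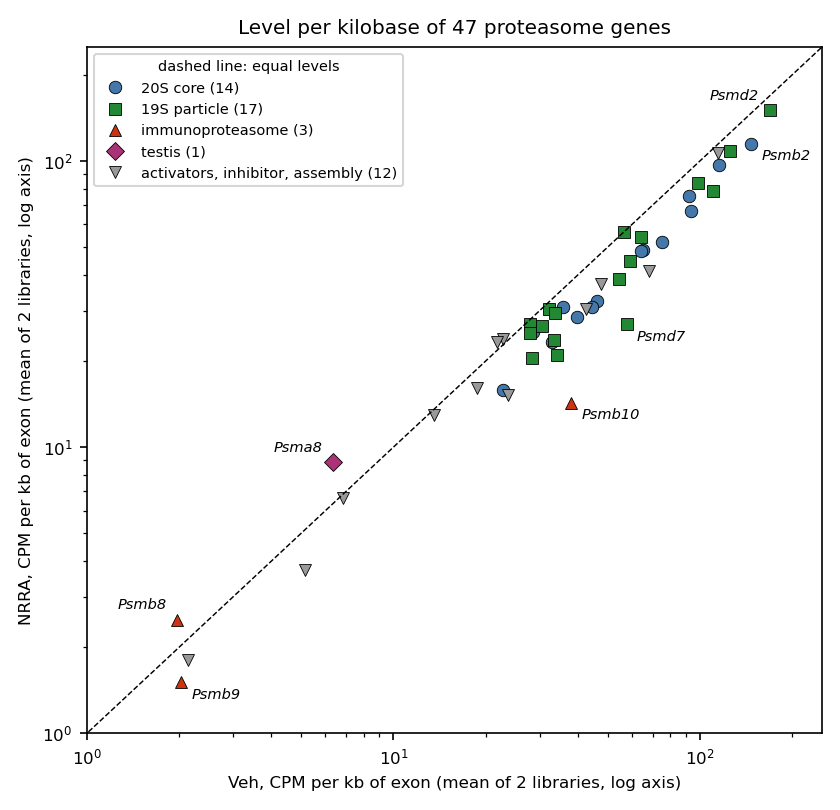
Level of the 47 tested members in CPM per kilobase of exon, mean of 2 libraries, Veh on the horizontal and NRRA on the vertical axis, both log axes, with symbols for the parts of the proteasome and a dashed line at equal levels. Most points lie a little below the line, Psmb10 and Psmd7 further below, and Psma8 and Psmb8 above it.

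Reads of near-identical copies can be split between genes. Of the members, 8 (Psma3, Psma4, Psma5, Psmb5, Psmb6, Psmc1, Psmd2 and Psme2) shared at least 20% of their longest transcript with another gene at 95% identity over at least 100 bases, among them Psmd2 with 91.9% and Psmb5 with 88.4%. All 8 were called lower. The other 39 tested members held 30 called lower and 2 higher, with a median log2 fold change of -0.26. Over all genes tested, 28.4% were called lower and 27.9% higher. The members lie on 16 chromosomes, with 8 on chromosome 11 and 1 (Psmd10) on the X chromosome.

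Partners of the proteasome whose symbols fall outside the rule moved in both directions. Of 10 such genes measured, 6 fell and 1 rose, with a median log2 fold change of -0.13, beside the 28.4% and 27.9% over all genes. With library size alone, 4 were lower and 3 higher, with a median of -0.038. Pomp, the maturation factor that is consumed as the core is completed, fell most, from 107 CPM in both Veh libraries to 60.5 and 55.6 CPM (-0.88, SE 0.044). The deubiquitinase Uchl5 fell from 27.8 and 27.6 CPM to a mean of 20.5 CPM (-0.44, SE 0.072). Its binding site in the particle, the ubiquitin receptor Adrm1 (-0.12), and the other associated deubiquitinase Usp14 (-0.13) fell by small amounts. Both lost their calls with library size alone (-0.033 and -0.043), and Adrm1 also without Veh replicate 1 (-0.082). The small lid subunit Sem1 was not called (0.072, adjusted p = 0.19), but was called higher with library size alone (0.16) and without NRRA replicate 2 (0.14). The ubiquitin ligase Ube3c was the one gene called higher (0.13, adjusted p = 9.0e-04). Without Veh replicate 2 or without NRRA replicate 2, 2 genes of this list were called higher.

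NFE2L1 raises proteasome genes when the proteasome is short of capacity, after it is freed of sugars by Ngly1 and cut by Ddi2. Of 15 genes of this pathway tested, including targets shared with its relative NFE2L2, 10 fell and 2 rose, with a median log2 fold change of -0.32, beside 28.4% called lower and 27.9% higher over all genes. The transcript of Nfe2l1 changed little, from 378 and 380 CPM to 351 and 363 CPM (-0.086, adjusted p = 0.0069), and lost its call without NRRA replicate 1 (-0.056, adjusted p = 0.19) and was at 0.0041 with library size alone. Ddi2 fell (-0.38, SE 0.033). Ngly1 rose from 9.65 and 10.6 to 13.8 and 14.0 CPM (0.45, SE 0.10). The largest fall in the list was that of the heme oxygenase gene Hmox1, from 292 and 307 CPM to 85.9 and 81.5 CPM (-1.84, SE 0.035).

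Genes that supply ubiquitin or carry tagged proteins to the proteasome showed 10 called lower and 2 higher of 16 (28.4% and 27.9% over all genes), with a median log2 fold change of -0.15. With library size alone, 6 were lower and 4 higher, with a median of -0.058. The shuttle Ubqln1 was at the low end, with 248 and 264 CPM in Veh and 178 and 181 CPM in NRRA (-0.51, SE 0.032). The activating enzyme Uba6 was at the high end, with 107 and 113 CPM in Veh and 133 and 130 CPM in NRRA (0.25, SE 0.037).

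The immunoproteasome cuts peptides for display on class I molecules, and genes of that route moved in both directions. Of 11 tested, 5 fell and 3 rose, beside 28.4% and 27.9% over all genes, and the median log2 fold change was -0.064 (0.026 with library size alone, -0.10 without Veh replicate 2). Nlrc5, the activator of class I genes and of Psmb9, fell from 9.83 and 9.57 to 3.65 and 4.05 CPM (-1.33, SE 0.14). The peptide transporter Tap1, which shares its promoter region with Psmb9, rose from 17.7 CPM in both Veh libraries to a mean of 24.4 CPM (0.46, SE 0.076). The class I gene H2-K1 rose from 86.8 and 79.9 to 151 and 141 CPM (0.81, SE 0.042). B2m, the constant partner of class I chains, was not called, with 307 and 267 CPM in Veh and 294 and 279 CPM in NRRA (0.000091). It was called higher without Veh replicate 1 (0.10) and lower without Veh replicate 2 (-0.10).

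Interferon regulators and targets were mixed as well, with 5 called higher and 4 lower of 15, which is near the 27.9% and 28.4% over all genes, and a median log2 fold change of 0.28, which was 0.12 without Veh replicate 2. Irf1, the interferon-responsive factor known to drive immunoproteasome genes, fell from 170 CPM in both Veh libraries to 76.1 and 79.3 CPM (-1.13, SE 0.036). Ifit3 had 8.32 and 3.89 CPM in Veh and 24.0 and 17.2 CPM in NRRA, and did not pass the test at a log2 fold change of 1.77 (adjusted p = 0.079). It was called higher whenever 1 library was left out, with values of 1.31 to 2.40, and also with the replicate block, with DESeq2 (adjusted p = 0.0070) and when the robust option was turned off. The number of genes of this list called higher was 9 without Veh replicate 1, 8 without NRRA replicate 1 and 9 without NRRA replicate 2.

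**Figure D4:**
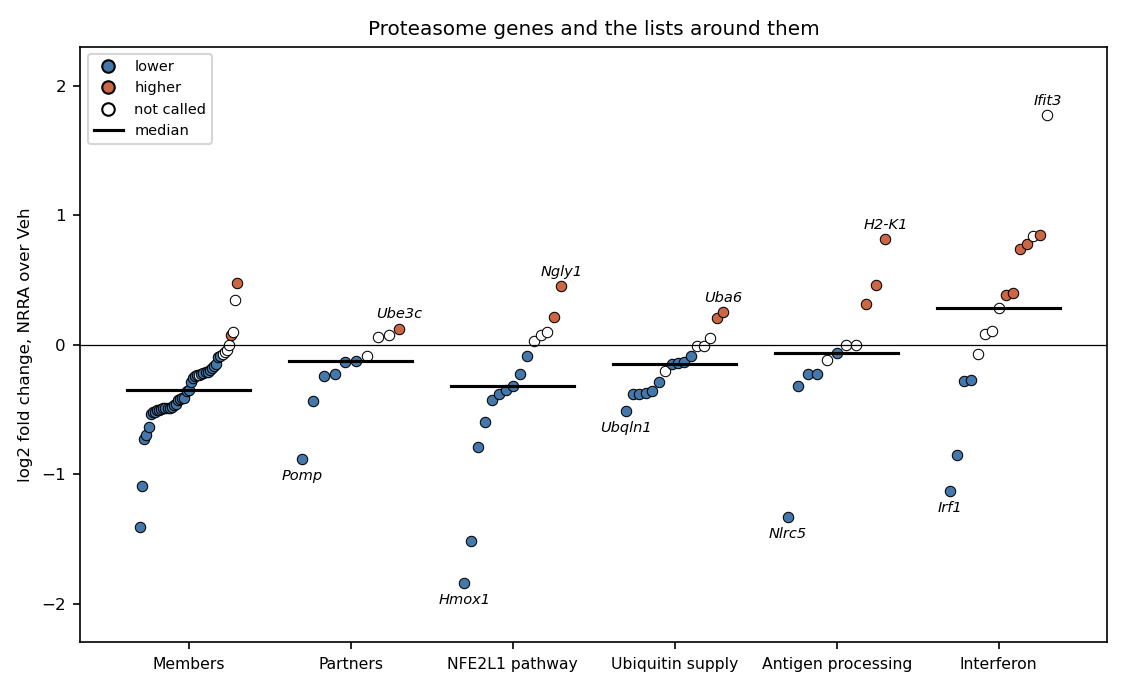
Log2 fold change, NRRA over Veh, of the 47 tested members and of the genes of 5 lists around them, 1 point per gene ordered by value, with the fill giving the call and a bar at the list's median. The members, the NFE2L1 pathway, the ubiquitin list, the partners and antigen processing have medians below 0 (-0.35, -0.32, -0.15, -0.13 and -0.064, the last at 0.026 with library size alone), while the interferon list has a median of 0.28 (0.12 without Veh replicate 2).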

How the data were processed

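Poly(A) RNA of 2 Veh and 2 NRRA libraries was measured. The authors deposited their counts per gene, not normalized, in 1 table of whole numbers. The submitters' processing notes name STAR 2.6.1c, featureCounts 1.6.4, bcl2fastq and mm10. The annotation release, the strand setting and the treatment of multiply mapped reads are not given in the sources used here, and the labels and the study's methods name different library kits. Groups came from the sample titles. These number the Veh libraries 1 and 2, whereas the descriptions, by which columns were matched, carry the next higher number.

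NRRA was compared with Veh in edgeR 4.0.16, run under R 4.3.3 (filterByExpr, TMM, robust quasi-likelihood F test, Benjamini-Hochberg over all 20232 genes tested, threshold 0.05), with 4 libraries and no covariate. The SE was derived from the F statistic. DESeq2 1.42.0 was an alternative, and 11 settings refitted all genes. The procedure was tested on simulated data. Coordinates, exon lengths and overlaps came from GENCODE M21 (GRCm38), with 99.5% of identifiers found, near-identical stretches from BLAST 2.17.0 and promoters from RefSeq. Replicates differed by more than sampling noise (chi-square per degree of freedom 2.45 in Veh and 1.99 in NRRA). The spread beyond counting error was still small, with a common coefficient of variation between replicates of 2.61%. The SEs, p-values and numbers of calls rest on this small spread, and the labels do not say whether the libraries came from separate cultures.

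Named by rule were Psmb5 to Psmb11, Psma7, Psma8, the Psme genes and Psmf1, in each other class the 2 largest and the 2 smallest log2 fold changes, and in each list its extremes and chosen regulators. The members and lists were chosen with earlier results of these data known. Of the interferon list, 1 gene is not reported here and was left out of its count and median. The ratio of Psme2 to Psme1 was added after values were seen.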

Additional observations from a re-analysis of the deposited data

How the results depend on the processing

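Of the 47 tested members, 34 to 39 were called lower under every setting tried. With library size only, in place of TMM, 34 were lower and 4 higher (Psma8, Psme4, Psmb8 and Psmd8), the members' median log2 fold change was -0.26, and 60.3% of all called genes were higher against 49.6% with TMM (median of all genes 0.090). That setting turned the direction of Psmd3 (0.0031), Psmd6 (0.031), Psmd10 (0.021), Psmf1 (0.045) and Nfe2l1 (0.0041), and Psma1, Psmd11 and Psme3 lost their calls. It left 4 partners lower and 3 higher, and 6 ubiquitin genes lower and 4 higher. With DESeq2, 36 were lower and 1 higher, and without a filter on low counts the median was -0.31. Psmb8 was also called higher without that filter (0.36) and with at least 10 counts in every library (0.35). Leaving out 1 library gave 1 to 2 members called higher and medians of -0.41 to -0.31, and turned Psmd8 (range -0.014 to 0.019) and B2m (-0.10 to 0.10). B2m was also at -0.00015 with at least 10 counts in every library. The 5 members lower by the fold limit of 1.5 became 2 at a limit of 2. With the longest transcript as length, medians per kilobase were 77.0 in Veh and 63.8 in NRRA for the 20S core, and 73.7 and 53.6 for the 19S particle. The cause of these shifts was not tested. Replicate numbers showed no pairing (correlation of deviations -0.011). With the replicate block, 38 members were lower and 3 higher, the third being Psmb8 (0.33, adjusted p = 0.023), and the interferon list had 8 genes called higher. The fold changes of members kept their direction and side of the threshold in 487 values, with 15 weaker, 9 stronger and 6 reversed. Ratios with each library left out and the comparison with genes of like level were chosen after seeing the data. Each ratio kept its direction. At this depth Psmb11, at or under the floor, could not be tested.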
